A study of Rattus norvegicus with 7 samples.

Results

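The collagen, laminin and basement membrane genes of cultured rat oligodendrocyte progenitor cells were examined after siRNA transfection. The genes were those whose symbol names a collagen chain (Col, a number, a, a number) or a laminin alpha, beta or gamma chain, together with Fn1, Vtn, Nid1, Nid2, Agrn, Sparc, Dcn, Lum and Bgn, and they filled 64 of the 32852 gene rows. Symbols numbered 63, because Col23a1 had a second row. Hspg2, Col1a2, Col21a1 and Lamb4 were not analysed here. The mean normalised count over all libraries reached 10 for 58 of the 64, and these were tested, while Col13a1, Col24a1, Col26a1, Col28a1, Lum and the second Col23a1 row fell below it.

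The siRNLTR12-int group held 3 libraries from cells given an siRNA that targets RNLTR12-int, which is a retrovirus-derived element of the rat genome, and the control siRNA group held 4 libraries from cells given a control siRNA. Cells of both groups came from brains of WT rats at postnatal day 7, were plated at about 40000 per well in plates of 12 wells, received the siRNA with Lipofectamine RNAiMAX, and were moved to differentiating medium at that time for 4 to 5 days. The labels call the libraries biological replicates without naming an animal or culture, so each p-value is relative to the spread among these libraries, and that spread could be technical. The level of the targeted element was not analysed here.

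Basement membranes are thin sheets built on a laminin polymer and a collagen IV network, which nidogens and the heparan sulfate proteoglycans perlecan and agrin join together. Laminins are trimers of an alpha, a beta and a gamma chain. Fibrillar collagens, collagen VI and fibronectin instead form the fibrous matrix between cells. In the brain, basement membranes surround blood vessels and underlie the meninges. Laminins are known to promote the maturation and survival of oligodendrocytes in culture, and fibronectin is known to accumulate in demyelinated lesions.

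The reads recovered from the normalised counts numbered 31609908 to 48187822 per siRNLTR12-int library and 22523873 to 61803693 per control library. Oligodendrocyte lineage markers were present in all 7 libraries, and the summed normalised count of the 10 markers was 147309 to 230518 in siRNLTR12-int libraries and 232976 to 938433 in control libraries. Markers of other cell types set some libraries apart within both groups. The summed count of 10 astrocyte markers was 118257 to 620313 in siRNLTR12-int libraries and 127002 to 558557 in control libraries, and 8 of the 10 were higher in siRNLTR12-int replicate 1 and control replicates 1 and 2 than in the other 4 libraries. The same held for 9 of 10 microglia markers. For fibroblast and meningeal markers, siRNLTR12-int replicate 1 and control replicate 1 were the 2 highest libraries in 8 of 14 rows, with summed counts of 295 to 766 in siRNLTR12-int libraries and 341 to 1010.4 in control libraries. Pericyte and smooth muscle marker sums were 2586 to 4634 in siRNLTR12-int libraries and 3382 to 7077 in control libraries. In that list Rgs5 did not exceed 18.3, while Pdgfrb had 652 to 2253 in siRNLTR12-int libraries and 850 to 2808 in control libraries. Endothelial marker sums were 509 to 1012 in siRNLTR12-int libraries and 535 to 1013 in control libraries. Cldn5, a defining endothelial gene, was at 0 in all 7, but Vwf had 156 to 199 in siRNLTR12-int libraries and 173 to 341 in control libraries. Among fibroblast markers, Mfap5 did not exceed 4.31, while Postn had 56.4 to 222 in siRNLTR12-int libraries and 32.7 to 410.5 in control libraries. The part of these cells in the differences described here was not tested, and in bulk RNA fewer cells of a type and less RNA per cell cannot be told apart.

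Fn1 and Lama5 rose in the siRNLTR12-int libraries, and these were the calls that the authors' deposited table made among the matrix genes at an adjusted p under 0.05, 2 of 59 with an adjusted p. In that table, 141 of 18747 genes (0.752%) were called, 72 higher (0.384%) and 69 lower (0.368%). Leaving out 1 library at a time in DESeq2 on the recovered reads gave 0 to 5 matrix calls, as described for each gene. In limma on log2(normalised count + 1), with Benjamini-Hochberg adjustment over 18225 genes, no matrix gene and no gene at all was called (0.0%), and edgeR on the recovered reads likewise called 0. At an unadjusted p under 0.05, limma gave 5 matrix genes higher (Lama5, Fn1, Col4a2, Col4a3 and Col5a3) and 2 lower (Col11a2 and Nid1), 12.1% of the 58, against 606 higher (3.33%) and 543 lower (2.98%) among all genes, 6.3% in either direction. edgeR gave 6 of the 58 at an unadjusted p under 0.05, against 1165 of all genes (6.39%).

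Directions were mixed over the matrix as a whole. The fitted log2 difference was positive for 32 and negative for 26 of the 58 genes, with a median of 0.06 and a range of -1.38 to 1.78, beside a median of 0.01 over all genes tested, of which 9300 (51.0%) were positive. The groups did not overlap for 5 genes. These were Fn1, Lama5 and Col5a3, with every siRNLTR12-int library above every control library, and Col11a2 and Col9a2, with every siRNLTR12-int library below. That is 8.62% of the 58, beside 7.68% of all genes tested (4.09% higher and 3.59% lower).

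**Figure D1:**
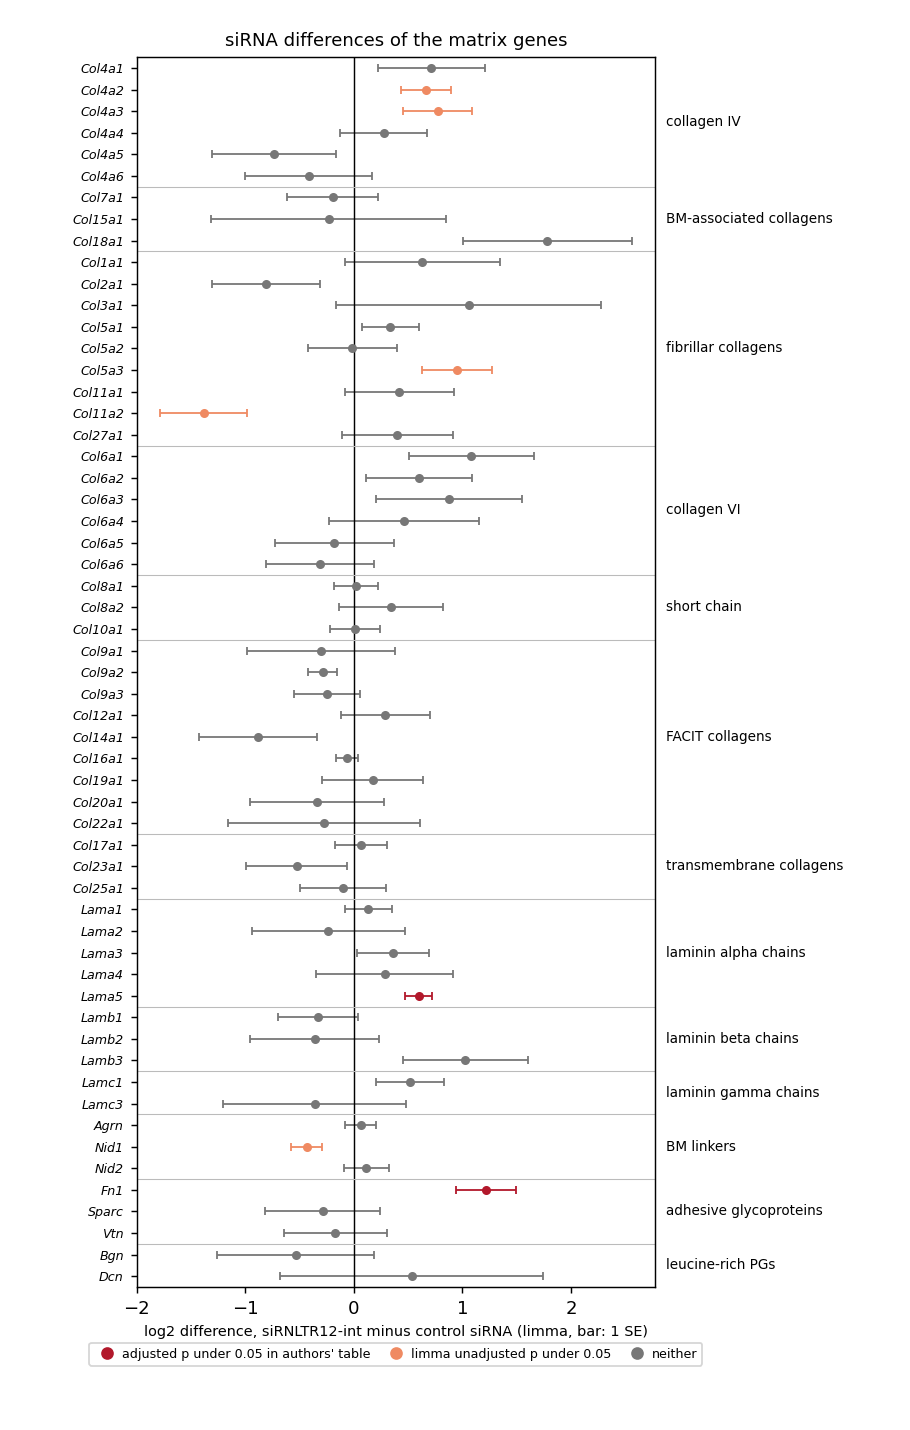
Log2 difference of the tested matrix genes (57 drawn), siRNLTR12-int minus control siRNA, on the log2(normalised count + 1) scale with bars of 1 SE from limma, grouped by role. Red points are the 2 genes with an adjusted p under 0.05 in the authors' deposited table (Fn1 and Lama5) and orange points the other 5 with an unadjusted limma p under 0.05. All other points are grey, and positive and negative differences occur side by side within collagen IV, the fibrillar collagens and the laminins.

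Fibronectin, encoded by Fn1 (ENSRNOG00000014288), is the main adhesive glycoprotein of fibrous matrix and binds integrins and collagens. Fn1 had 12362, 8946 and 9150.4 normalised counts in siRNLTR12-int replicates 1 to 3, against 6937, 3224, 4411 and 3488 in control replicates 1 to 4. All siRNLTR12-int libraries lay above all control libraries, and in each group replicate 1 was the highest. The means were 10153 ± 1916 (SD, n = 3) in siRNLTR12-int libraries and 4515 ± 1693 (SD, n = 4) in control libraries. The authors' deposited table gave a log2 fold change of 1.17 with a standard error of 0.32 and a DESeq2 adjusted p of 0.0381. limma gave a log2 difference of 1.22 with an SE of 0.28, an unadjusted p of 0.0028 and an adjusted p of 0.647. Over the alternative settings the adjusted p ran from 0.00649 to 1.0, an upper end that all 38 named genes shared.

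The call for Fn1 depended on single libraries. DESeq2 on the recovered reads repeated the authors' 141 calls. Without siRNLTR12-int replicate 1, 2 or 3 the DESeq2 adjusted p of Fn1 became 0.0933, 0.338 and 0.38. Without control replicate 2, 3 or 4 it became 0.125, 0.127 and 0.238. Without control replicate 1 it was 2.66e-07. The log2 difference stayed between 0.998 and 1.45 over these 7 fits. The difference was 1.21 between siRNLTR12-int replicates 2 and 3 and control replicates 3 and 4, the libraries low in astrocyte markers. Between siRNLTR12-int replicate 1 and control replicates 1 and 2, high in those markers, it was 1.39, and against control replicate 1 alone 0.83.

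The other adhesive and matricellular genes were not called. Sparc, a matricellular protein that binds collagens, had 20277, 6792 and 6830.2 normalised counts in siRNLTR12-int replicates 1 to 3, against 22177, 15402, 7105 and 8439 in control replicates 1 to 4. It was high in the 3 libraries rich in astrocyte markers, whichever siRNA they received. The groups overlapped, and limma gave a log2 difference of -0.29 with an SE of 0.53 and an adjusted p of 0.984. Vtn, which encodes the adhesive protein vitronectin, stayed low, between 5.81 and 17.2 normalised counts over the 7 libraries.

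**Figure D2:**
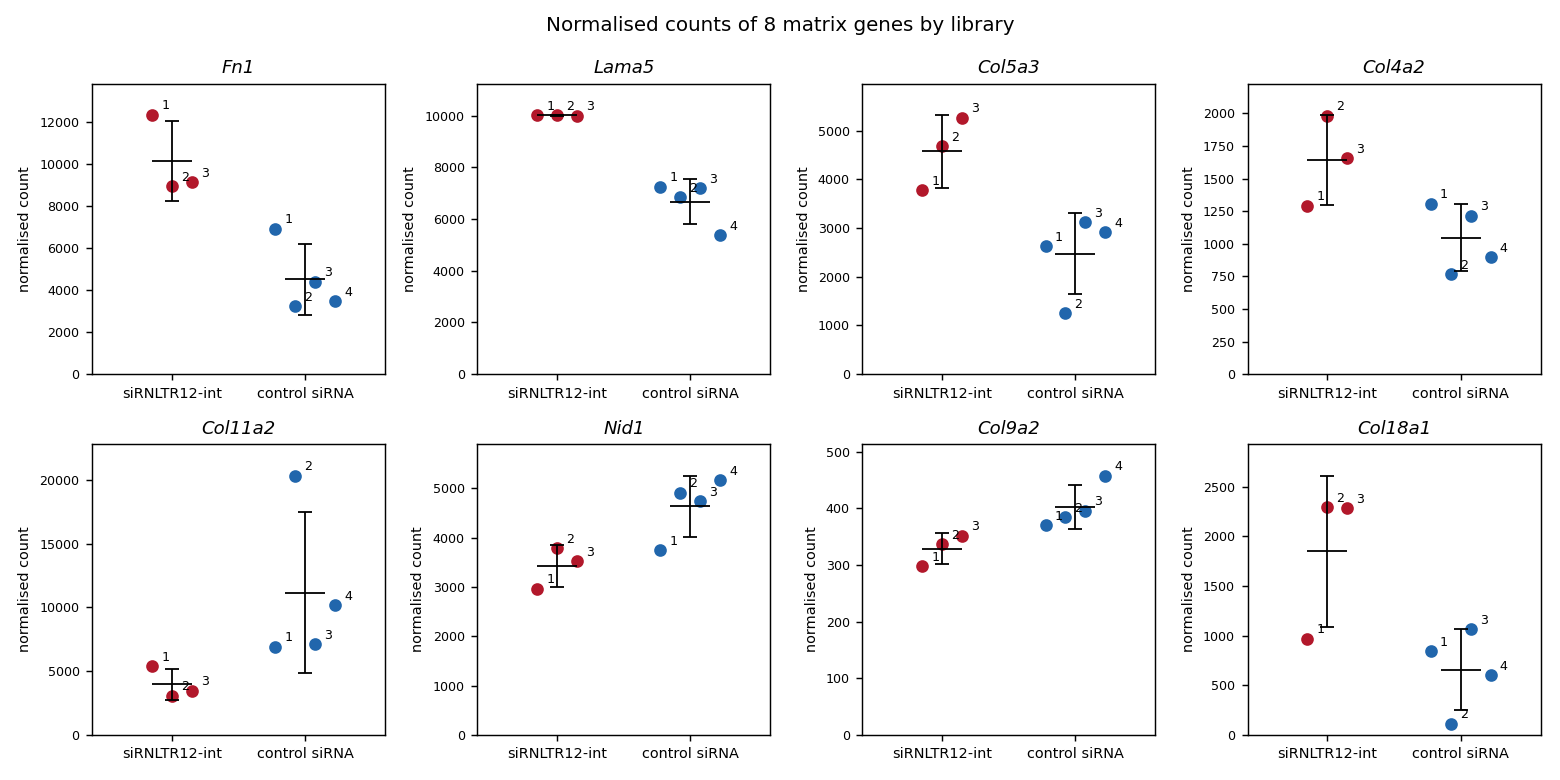
Normalised counts of 8 matrix genes in the 3 siRNLTR12-int libraries (red, left) and the 4 control siRNA libraries (blue, right), with replicate numbers beside the points and bars for the group mean ± SD. Fn1, Lama5 and Col5a3 lie wholly higher and Col11a2 and Col9a2 wholly lower in siRNLTR12-int libraries, while the groups overlap for Col4a2, Nid1 and Col18a1. The control mean of Col11a2 is drawn up by control replicate 2.

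Among the laminin alpha chains, Lama5 was the gene that the authors' deposited table called. Lama5 (ENSRNOG00000053691) encodes the alpha5 chain of laminin-511 and laminin-521, trimers of mature basement membranes that include those of brain vessels. It had 10025, 10023 and 9989 normalised counts in siRNLTR12-int replicates 1 to 3, against 7243, 6850.1, 7185 and 5375 in control replicates 1 to 4. All siRNLTR12-int libraries lay above all control libraries, control replicate 4 being the lowest. The means were 10012 ± 20.0 (SD, n = 3) in siRNLTR12-int libraries and 6663 ± 876 (SD, n = 4) in control libraries.

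The authors' deposited table gave Lama5 a log2 fold change of 0.59 with a standard error of 0.15 and a DESeq2 adjusted p of 0.0186. limma gave a log2 difference of 0.60 with an SE of 0.12, an unadjusted p of 0.00178 and an adjusted p of 0.647. Over the alternative settings, DESeq2 included, the adjusted p ran from 0.0186 to 1.0, the upper end shared by all 38 named genes. In DESeq2 fits that left out 1 library, the adjusted p was 0.0517, 0.466 and 0.46 without siRNLTR12-int replicate 1, 2 or 3. It was 0.0139, 0.0761, 0.0537 and 0.000151 without control replicate 1, 2, 3 or 4. Of these 7 fits, Lama5 passed the threshold in those without control replicate 1 or 4, while its size stayed between 0.50 and 0.63. It was 0.69 between the libraries low in astrocyte markers and 0.51 between those high in them. Between siRNLTR12-int replicate 1 and control replicate 1 alone it was 0.47.

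The 250 bases before the annotated start of Lama5 (RefSeq, build GRCr8, chr3:187695975-187696224, minus strand, written 5′ to 3′ on the gene's strand) are shown because Lama5 is the called gene with a promoter in the table used. Capitals mark GGGCGG or its reverse complement CCGCCC, the GC box bound by Sp1-type factors, searched on both strands with overlapping matches allowed. The window holds 4 matches.
Lama5: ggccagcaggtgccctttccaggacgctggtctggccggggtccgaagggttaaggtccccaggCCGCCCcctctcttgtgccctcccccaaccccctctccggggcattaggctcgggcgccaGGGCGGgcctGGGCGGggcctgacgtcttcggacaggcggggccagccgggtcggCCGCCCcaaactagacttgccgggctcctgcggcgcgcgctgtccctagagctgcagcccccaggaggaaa
A RefSeq promoter was matched for 48 of the 63 symbols (76.2%). The GC box occurred in 26 of these 48 windows (54.2%), beside 10197 of all 33469 rat promoter windows of that length (30.5%). The 33469 were not limited to genes tested here, so the percentages come from unlike sets and cannot show an enrichment. A match is a description of the letters, not a measured binding site.

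The remaining laminin alpha chains were not called over the 7 libraries. Lama4, the alpha4 chain of vessel and peripheral nerve laminins, had 1683, 5112 and 5168 normalised counts in siRNLTR12-int replicates 1 to 3, against 1675, 1483, 5177 and 5542 in control replicates 1 to 4. The low values belonged to the 3 libraries rich in astrocyte markers in both groups. Its log2 difference was 0.29 (SE 0.63, limma adjusted p 0.99), and -0.06 between the 4 libraries low in astrocyte markers. Lama1, a chain of early basement membranes, was even, at 380.0, 313 and 379.6 in siRNLTR12-int libraries and 432, 276, 371 and 250.1 in control libraries. Lama3, a chain of epithelial laminins, had 274, 229 and 204 in siRNLTR12-int libraries and 336, 159.6, 146 and 140.1 in control libraries. Lama2, the alpha2 chain of the main laminin of muscle and peripheral nerve, was named after its values were seen. It had 423, 116 and 104 in siRNLTR12-int libraries and 454, 321, 104 and 112 in control libraries, again high in the astrocyte-rich libraries of both groups.

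No beta or gamma chain passed an unadjusted limma p under 0.05. Lamb2, the beta2 chain known from the neuromuscular synapse and the kidney, had 5738, 1666 and 1705 normalised counts in siRNLTR12-int replicates 1 to 3, against 5739, 5178, 1899.6 and 1987 in control replicates 1 to 4, so the groups overlapped almost entirely (log2 difference -0.36, SE 0.59, limma adjusted p 0.984). Lamc1, the gamma1 chain found in most laminins, had 7016, 13487 and 13236 in siRNLTR12-int libraries and 5705, 5926, 10139 and 9351 in control libraries. It was low in the astrocyte-rich libraries, and within each set the siRNLTR12-int values lay above the control values. Over all 7 libraries its log2 difference was 0.52 with an SE of 0.31 and a limma adjusted p of 0.895. Lamb1, the beta1 partner of many laminins, had 273, 144 and 142 in siRNLTR12-int libraries and 317, 131, 213 and 282 in control libraries. Lamb3 and Lamc3 stayed below 100 normalised counts in every library.

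Collagen IV chains are encoded as head-to-head gene pairs, and the fitted differences were positive in the Col4a1 and Col4a2 pair and negative in the Col4a5 and Col4a6 pair. Col4a1 and Col4a2 encode the alpha1 and alpha2 chains that form the common collagen IV network. The bases between their annotated starts (RefSeq, GRCr8, chr16:84885521-84885596, plus strand) number 76 and are shown because both genes read outward from them. Capitals mark the GC box, with 1 match.
Col4a1 and Col4a2 gap: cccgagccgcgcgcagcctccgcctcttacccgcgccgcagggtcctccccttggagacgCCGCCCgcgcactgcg
The starts of Col4a3 and Col4a4, the chains of kidney and ear basement membranes, lie 412 bases apart, and those of Col4a5 and Col4a6 lie 1414 apart.

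Col4a2 (ENSRNOG00000023972) had 1294, 1984 and 1658 normalised counts in siRNLTR12-int replicates 1 to 3, against 1309, 766, 1214 and 898 in control replicates 1 to 4. Only siRNLTR12-int replicate 1 fell within the control range, just under control replicate 1. The log2 difference was 0.66 with an SE of 0.23, a limma unadjusted p of 0.0233 and an adjusted p of 0.712. Col4a1 (ENSRNOG00000016281) had 2552, 7647 and 6534 in siRNLTR12-int libraries and 3069.6, 1579, 4939 and 3690.0 in control libraries. The lowest siRNLTR12-int value was again replicate 1, below 3 of the 4 controls, and the log2 difference was 0.72 with an SE of 0.49 and a limma adjusted p of 0.918. Between the libraries low in astrocyte markers the differences were 0.80 for Col4a2 and 0.73 for Col4a1. Between those high in astrocyte markers they were 0.37 and 0.21, and against control replicate 1 alone siRNLTR12-int replicate 1 was -0.02 and -0.27 away.

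Col4a3 counts were low, at 85.9, 54.4 and 76.6 normalised counts in siRNLTR12-int replicates 1 to 3 and 65.1, 36.3, 37.9 and 31.9 in control replicates 1 to 4. siRNLTR12-int replicate 2 lay below control replicate 1, and the log2 difference was 0.77 with an SE of 0.32 (limma unadjusted p 0.0431, adjusted p 0.78). Its partner Col4a4 had 174, 125 and 104 in siRNLTR12-int libraries and 202, 109.6, 61.2 and 101 in control libraries. Col4a5, a chain of kidney and smooth muscle basement membranes, went the other way in its fitted value. It had 709.8, 233 and 172 in siRNLTR12-int libraries and 952, 614, 342 and 335 in control libraries, with a log2 difference of -0.74, an SE of 0.57 and a limma adjusted p of 0.935. Col4a6 had 85.9, 21.5 and 16.1 in siRNLTR12-int libraries and 67.0, 37.0, 37.1 and 33.7 in control libraries. Of the 6 collagen IV genes, 2 were higher and 0 lower at an unadjusted limma p under 0.05, beside 3.33% higher and 2.98% lower among all genes, with a median log2 difference of 0.47.

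Nidogens and agrin tie laminin to the rest of the basement membrane, and of these genes Nid1 passed an unadjusted limma p under 0.05. Nid1 (ENSRNOG00000002461), the laminin-binding nidogen-1, had 2966, 3791 and 3519 normalised counts in siRNLTR12-int replicates 1 to 3, against 3746, 4911, 4744 and 5162 in control replicates 1 to 4. siRNLTR12-int replicate 2 lay slightly above control replicate 1 and the other values did not overlap. The log2 difference was -0.43 with an SE of 0.14, a limma unadjusted p of 0.0186 and an adjusted p of 0.703. It was -0.44 between the libraries low in astrocyte markers and -0.53 between those high in them. Between siRNLTR12-int replicate 1 and control replicate 1 alone it was -0.34. Nid2, the second nidogen, had 14756, 10064 and 9848 in siRNLTR12-int libraries and 12779, 12169, 8896 and 8696 in control libraries. Agrn, a heparan sulfate proteoglycan that binds laminin, had 8891, 11609.5 and 11234 in siRNLTR12-int libraries and 8902, 11681, 10062 and 9817 in control libraries. The log2 differences were 0.12 for Nid2 (SE 0.21) and 0.06 for Agrn (SE 0.14), with limma adjusted p values of 0.984 and 0.99.

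Col18a1 had the largest fitted difference of the 58 genes. It encodes collagen XVIII, a basement membrane proteoglycan whose C-terminal fragment is endostatin. Col18a1 had 969, 2295 and 2286 normalised counts in siRNLTR12-int replicates 1 to 3, against 845, 114, 1067 and 599.6 in control replicates 1 to 4. siRNLTR12-int replicate 1 lay below control replicate 3, and control replicate 2 was far below all others. The log2 difference was 1.78 with an SE of 0.77, a limma unadjusted p of 0.0536 and an adjusted p of 0.796, and without control replicate 2 it was 1.08. Between siRNLTR12-int replicate 1 and control replicate 1 it was 0.20, and between the 4 libraries low in astrocyte markers 1.52. Col7a1, the anchoring fibril collagen, stayed below 100 in all libraries.

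Fibrillar collagens held the matrix gene with the most negative difference. Col11a2 (ENSRNOG00000000463) encodes the alpha2 chain of collagen XI, a minor fibrillar collagen that sets fibril diameter in cartilage. It had 5362, 3069 and 3461 normalised counts in siRNLTR12-int replicates 1 to 3, against 6905, 20329.8, 7106 and 10181 in control replicates 1 to 4. All siRNLTR12-int libraries lay below all control libraries, and control replicate 2 was the highest. The means were 3964 ± 1226 (SD, n = 3) in siRNLTR12-int libraries and 11130.4 ± 6314 (SD, n = 4) in control libraries. limma gave a log2 difference of -1.38 with an SE of 0.40, an unadjusted p of 0.0102 and an adjusted p of 0.662. The authors' deposited table gave -1.49 with a DESeq2 adjusted p of 0.074. Without control replicate 2 the limma difference was -1.04. The log2 difference was -1.38 within the libraries low in astrocyte markers and -1.14 within those high in them. Between siRNLTR12-int replicate 1 and control replicate 1 alone it was -0.36. In DESeq2 fits leaving out 1 library, Col11a2 was called without siRNLTR12-int replicate 1, without control replicate 1 and without control replicate 3.

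The 250 bases before the start of Col11a2 (RefSeq, GRCr8, chr20:4817649-4817898, minus strand, 5′ to 3′ on the gene's strand) are shown beside the Lama5 window because the genes had opposite signs. Capitals mark the GC box as above, with 3 matches, a pair of which overlap.
Col11a2: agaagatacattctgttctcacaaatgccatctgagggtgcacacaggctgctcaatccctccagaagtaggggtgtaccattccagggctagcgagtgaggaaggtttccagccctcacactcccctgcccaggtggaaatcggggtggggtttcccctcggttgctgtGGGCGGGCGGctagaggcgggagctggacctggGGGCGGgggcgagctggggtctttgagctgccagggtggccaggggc
The GC box was thus present upstream of a gene with a positive and a gene with a negative difference.

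Col5a3 (ENSRNOG00000020525), the alpha3 chain of collagen V, had 3770.3, 4679 and 5266 normalised counts in siRNLTR12-int replicates 1 to 3, against 2628, 1253, 3113 and 2908 in control replicates 1 to 4. All siRNLTR12-int libraries lay above all control libraries, with control replicate 2 the lowest. The log2 difference was 0.95 with an SE of 0.32, a limma unadjusted p of 0.0203 and an adjusted p of 0.712, and the authors' deposited table gave 0.89 with an adjusted p of 0.306. It was 0.72 between the libraries low in astrocyte markers and 1.05 between those high in them. Between siRNLTR12-int replicate 1 and control replicate 1 alone it was 0.52. Without control replicate 2 it was 0.66. The related chain Col5a1 had 1523, 1458 and 1605 in siRNLTR12-int libraries and 1566, 712, 1357 and 1410.4 in control libraries, again with control replicate 2 the lowest.

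Col11a1, the alpha1 chain of collagen XI, had 4906, 11116 and 11018 normalised counts in siRNLTR12-int replicates 1 to 3, against 3973, 3634, 10723 and 10289 in control replicates 1 to 4, low in the astrocyte-rich libraries of both groups (log2 difference 0.42, SE 0.50, limma adjusted p 0.978). The classical fibrillar genes were named after their values were seen. Col1a1 had 1001, 792 and 719 in siRNLTR12-int libraries and 1782, 157, 551 and 534 in control libraries. Col3a1 had 969, 178 and 181 in siRNLTR12-int libraries and 1241, 42.1, 166 and 58.5 in control libraries, a 29.5-fold range over the 7. Both were highest in control replicate 1 and lowest in control replicate 2, and the authors' deposited table held no p for Col3a1. Col2a1, the cartilage collagen, had 32.9, 49.4 and 50.8 in siRNLTR12-int libraries and 40.2, 50.1, 122 and 144 in control libraries.

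Collagen VI forms beaded filaments and is made as a trimer of Col6a1, Col6a2 and another chain such as Col6a3. Col6a1 had 1741, 762 and 598 normalised counts in siRNLTR12-int replicates 1 to 3, against 1166, 318, 355 and 277 in control replicates 1 to 4. siRNLTR12-int replicate 1 and control replicate 1 were the 2 highest libraries, so the groups overlapped (log2 difference 1.08, SE 0.58, limma adjusted p 0.859). Col6a2 had 2057, 787 and 836 in siRNLTR12-int libraries and 1558, 657, 578 and 481 in control libraries. Col6a3 had 528, 232 and 235 in siRNLTR12-int libraries and 542, 79.1, 174 and 103 in control libraries. Each of the trio was higher in siRNLTR12-int replicates 2 and 3 than in control replicates 2, 3 and 4, while none of the 6 collagen VI genes passed an unadjusted limma p under 0.05.

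FACIT collagens, which decorate fibrils, gave 2 positive and 7 negative differences of 9, with none past an unadjusted limma p under 0.05. Col9a2, a collagen IX chain, had 298, 337 and 351 normalised counts in siRNLTR12-int replicates 1 to 3, against 370.3, 384, 396 and 458 in control replicates 1 to 4. The groups did not overlap, and the log2 difference was -0.29 with an SE of 0.13 (limma unadjusted p 0.0654, adjusted p 0.826). Col12a1 had 12873, 6421 and 6617 in siRNLTR12-int libraries and 11518, 8454, 4839 and 4270.1 in control libraries. Col20a1 had 1152, 2888 and 3104 in siRNLTR12-int libraries and 925, 3779, 3538 and 4692 in control libraries. siRNLTR12-int replicate 1 and control replicate 1 were the highest libraries of their groups for Col12a1 and the lowest for Col20a1. Among the libraries low in astrocyte markers, siRNLTR12-int values lay above control values for Col12a1 and below them for Col20a1. Col16a1 was among the steadiest genes, at 2953, 2666 and 2940.0 in siRNLTR12-int libraries and 2815, 2768, 3063 and 3312 in control libraries (log2 difference -0.07, SE 0.10).

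No short chain or transmembrane collagen passed an unadjusted limma p under 0.05. Col8a1, a collagen of vascular and corneal matrix, had 461, 341 and 334 normalised counts in siRNLTR12-int replicates 1 to 3, against 489, 356, 338 and 316 in control replicates 1 to 4. Col10a1, the collagen of hypertrophic cartilage, had 157, 206 and 206 in siRNLTR12-int libraries and 188, 137, 249 and 189.8 in control libraries. Col23a1, a transmembrane collagen, had 171, 74.7 and 68.5 in siRNLTR12-int libraries and 220.1, 195, 97.4 and 86.9 in control libraries in its first row. The second Col23a1 row held 0 to 3.83 normalised counts over the 7 libraries, a small amount beside the first.

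Small leucine-rich proteoglycans bind collagen fibrils. Bgn, which encodes biglycan, had 3404, 946 and 916 normalised counts in siRNLTR12-int replicates 1 to 3, against 3633, 4761, 959 and 1132 in control replicates 1 to 4, high in the astrocyte-rich libraries (log2 difference -0.54, SE 0.72, limma adjusted p 0.981). Dcn, the gene of decorin, was named after its values were seen and had 90.4, 8.86 and 9.67 in siRNLTR12-int libraries and 89.9, 2.90, 10.3 and 10.6 in control libraries. It was high in siRNLTR12-int replicate 1 and control replicate 1 only.

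Matrix genes covered a wide range over the 7 libraries, within as well as between the siRNA groups. The ratio of the highest to the lowest library had a median of 3.46 over the 58 genes, beside 1.75 over all genes tested, and exceeded 10 for genes that include Col15a1, Col18a1, Col1a1, Col3a1 and Dcn. siRNLTR12-int replicate 1 and control replicate 1 were the 2 highest libraries for 25 of the 58 (43.1%), beside 3389 of all genes tested (18.6%). All 3 astrocyte-rich libraries lay above the other 4 for 16 matrix genes (27.6%), beside 18.6% of all genes tested, and below them for 8 (13.8%), beside 17.1%. These 3 libraries were set apart by the largest gap in astrocyte marker level, so their high astrocyte level is given by that choice. They also had the highest microglia marker levels. The fibroblast and meningeal level was highest in siRNLTR12-int replicate 1 and control replicate 1, and control replicate 2 was not raised in it.

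**Figure D3:**
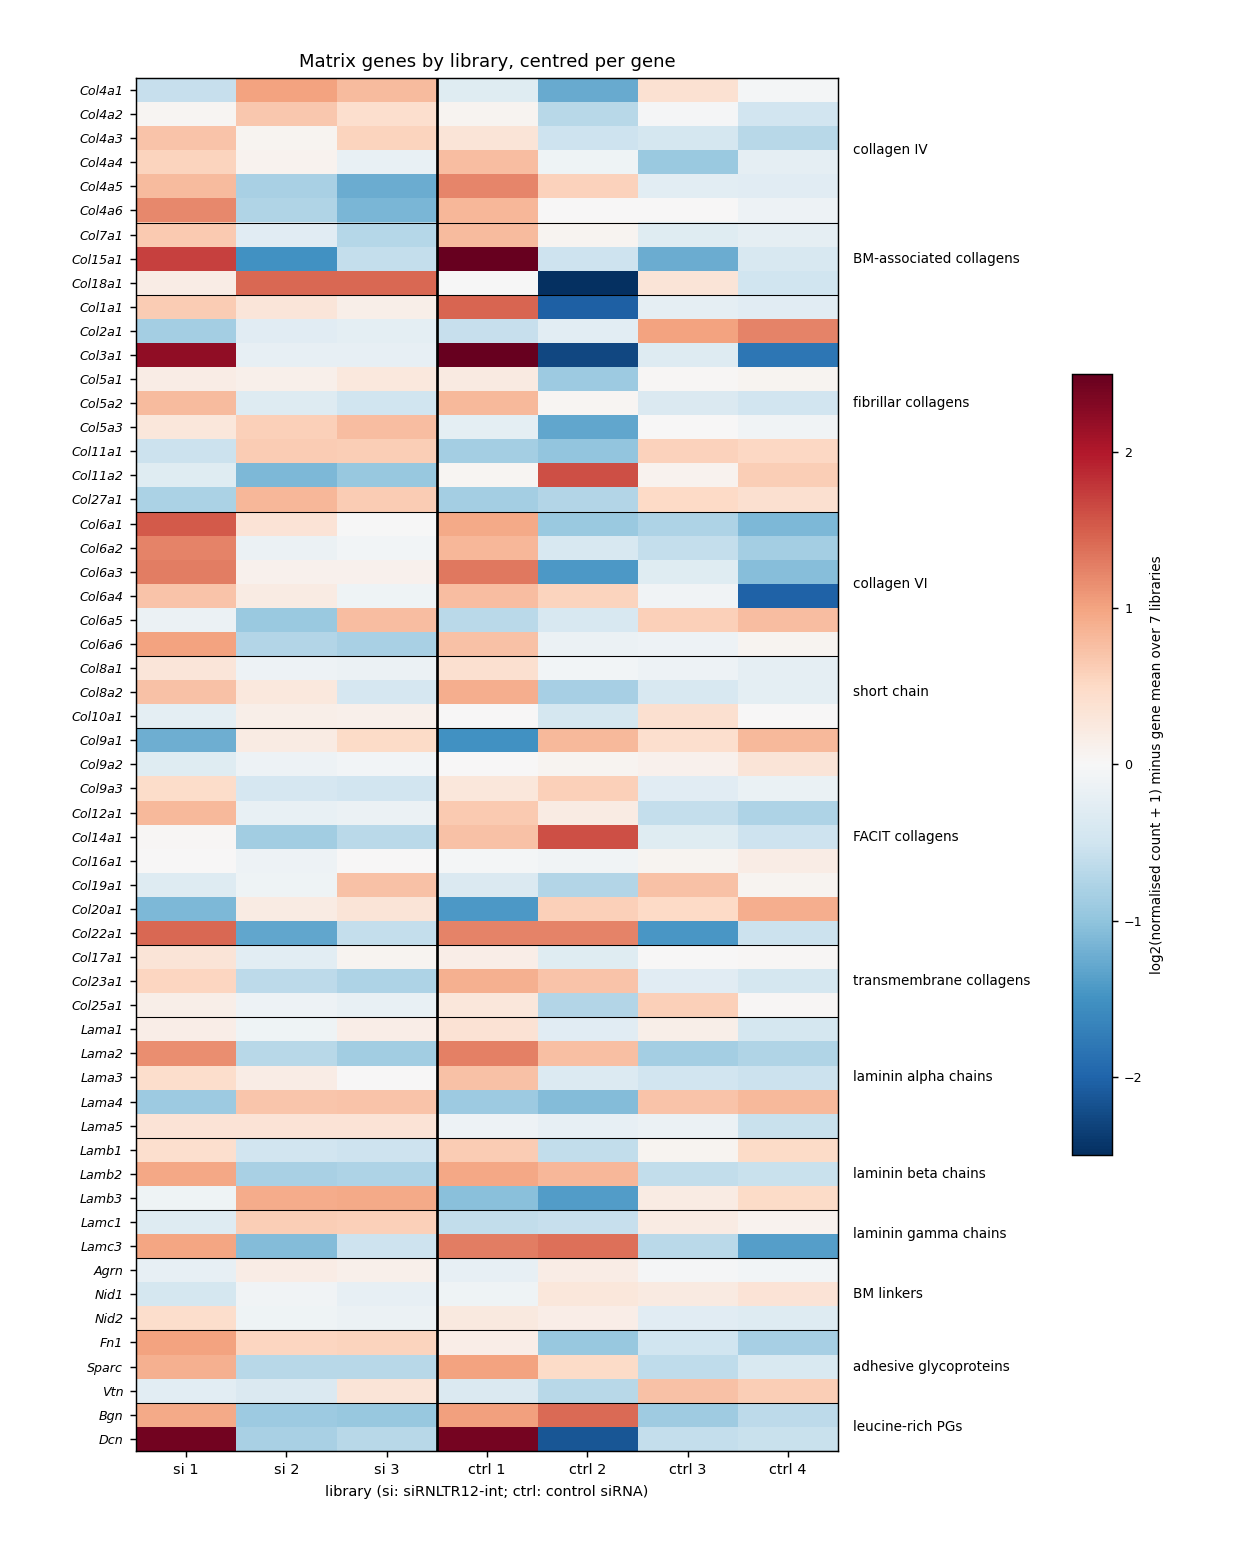
Heatmap of the tested matrix genes (57 drawn) by library, as log2(normalised count + 1) minus the gene's mean over the 7 libraries, with siRNLTR12-int libraries left of the black line and colours capped at 2.5. The columns si 1 and ctrl 1 share many red cells, for example in collagen VI, Col3a1, Col15a1 and Dcn, and ctrl 2 is the bluest for Col18a1.

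**Figure D4:**
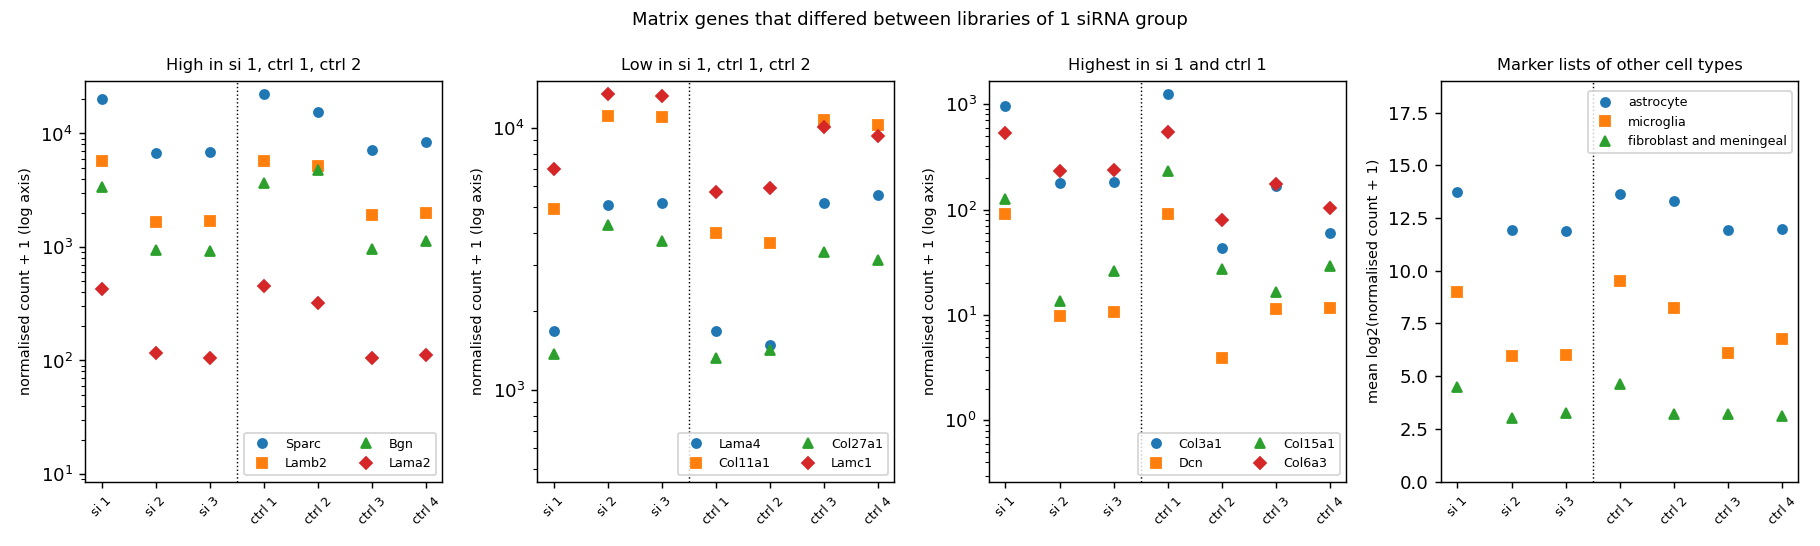
Normalised counts + 1 on log axes for 12 matrix genes, with the 3 siRNLTR12-int libraries left of the dotted line and the 4 control libraries right of it, and in the last panel the mean log2(normalised count + 1) of the marker lists. Sparc, Lamb2, Bgn and Lama2 are high and Lama4, Col11a1, Col27a1 and Lamc1 low in si 1, ctrl 1 and ctrl 2, the libraries with the highest astrocyte and microglia levels. Col3a1, Dcn, Col15a1 and Col6a3 are highest in si 1 and ctrl 1, as is the fibroblast and meningeal list.

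The count of called matrix genes grew when the spread between libraries was treated differently. With limma array weights, which give less weight to libraries that vary more, 839 genes (4.60%) and 6 of the 58 matrix genes (10.3%) had a Benjamini-Hochberg adjusted p under 0.05. Fn1, Lama5, Col5a3 and Col4a2 were higher and Col11a2 and Nid1 lower. In limma on siRNLTR12-int replicates 2 and 3 and control replicates 3 and 4 alone, the libraries low in astrocyte markers, 1415 of 17947 genes (7.88%) and 15 of 57 matrix genes (26.3%) were called, and all 6 were among the 15. The other 9 were Col18a1 (log2 difference 1.52, adjusted p 0.0163), Col6a1 (1.10, 0.0162), Col4a1 (0.73, 0.0318), Col6a2 (0.62, 0.0305), Col12a1 (0.52, 0.018), Col1a1 (0.48, 0.0413) and Lamc1 (0.46, 0.0187) on the higher side. Col2a1 (-1.38, 0.0167) and Col4a5 (-0.76, 0.0484) were lower. In limma on all 7 libraries without array weights none of the 15 was called. For those of the 15 under the naming rule, the adjusted p reached 1.0 under another setting, as for all 38 named genes. Col1a1 and Col2a1 were outside the naming rule and have no such range. Both siRNLTR12-int libraries lay above both control libraries of these 4 for 22 of the 58 genes, beside 31.2% of all genes tested, and below them for 20, beside 25.3%. These 4 libraries were chosen by marker levels, not by the labels, and hold 2 libraries per siRNA. They were also the closest pairs within their groups, with a median chi-square per gene of 1.36 between siRNLTR12-int replicates 2 and 3 and 3.22 between control replicates 3 and 4, against 12.1 to 25.0 for the other pairs within a group. The small spread behind the 15 calls is that of these close pairs. The fit with array weights used these libraries too, so the overlap of its 6 calls with the 15 is not independent support. A fit of all 7 libraries with that division as a block called no gene, with limma adjusted p values of 0.191 for Fn1 and Lama5 and 0.222 for Col11a2.

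Genes that make, process or bind these proteins were read as a second list of 67, of which 64 were tested. At an unadjusted limma p under 0.05, 8 were higher (P4ha3, Cd44, Efemp2, Emilin1, Ntn4, Thbs1, Tinagl1 and Adamts14) and 1 lower (Tll2), beside 3.33% higher and 2.98% lower among all genes, and none was called by limma after adjustment. Ntn4, Thbs1 and Tinagl1 are named here to complete that count. Positive differences numbered 37 and negative 27, with a median of 0.04. The groups did not overlap for 7 of the 64 with siRNLTR12-int higher and 1 with it lower. Among all genes tested the shares were 4.09% and 3.59%. The authors' deposited table called 2 of the 64, Cd44 higher and Tll2 lower, beside 0.752% of all genes.

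Cd44, a receptor for hyaluronan that also binds matrix proteins, had 12964, 20904 and 20281 normalised counts in siRNLTR12-int replicates 1 to 3, against 9570.4, 10571, 11337 and 8434 in control replicates 1 to 4. Every siRNLTR12-int library lay above every control library. The authors' deposited table gave a log2 fold change of 0.86 with a standard error of 0.23 and a DESeq2 adjusted p of 0.03, and the limma adjusted p was 0.647. The DESeq2 adjusted p rose above the threshold without siRNLTR12-int replicate 2 (0.639) or 3 (0.625) and without control replicate 2 (0.0825), 3 (0.0514) or 4 (0.211).

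Tll2, a tolloid-like protease of the family that cleaves procollagen ends, had 10.96, 11.4 and 16.9 normalised counts in siRNLTR12-int replicates 1 to 3, against 40.2, 92.2, 51.7 and 60.3 in control replicates 1 to 4. All siRNLTR12-int values lay well below the lowest control value. The authors' deposited table gave a log2 fold change of -2.21 with a standard error of 0.45 and a DESeq2 adjusted p of 0.0012, against a limma adjusted p of 0.647. Without siRNLTR12-int replicate 2 the DESeq2 adjusted p was 0.0866, and in the other 6 fits it stayed under 0.05.

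P4ha3, a subunit of the prolyl 4-hydroxylase that stabilises the collagen triple helix, had 148, 254 and 263 normalised counts in siRNLTR12-int replicates 1 to 3, against 146, 86.4, 95.7 and 86.9 in control replicates 1 to 4. siRNLTR12-int replicate 1 lay only just above control replicate 1, and the other libraries stood apart by group (log2 difference 1.08, SE 0.29, limma unadjusted p 0.00713, adjusted p 0.661). Adamts14, a procollagen N-propeptidase, had 842, 1158 and 1125 in siRNLTR12-int libraries and 912, 573, 694 and 357 in control libraries, overlapping through replicate 1 of each group. Efemp2 and Emilin1, both elastic fibre proteins, also did not overlap between the groups. Efemp2 had 1760.4, 1599 and 1541 in siRNLTR12-int libraries and 1491, 912, 1179.9 and 1102 in control libraries. Emilin1 had 1000.4, 1236 and 1057 in siRNLTR12-int libraries and 972, 781, 819 and 786 in control libraries. Ddr1, a collagen receptor kinase, had 10179.8, 5518 and 5439 in siRNLTR12-int libraries and 12130.0, 18385, 6599 and 9738 in control libraries (log2 difference -0.70, limma adjusted p 0.859). Colgalt2, which adds galactose to collagen hydroxylysine, had 1134, 1614 and 1521 in siRNLTR12-int libraries and 1337, 2220.5, 2056 and 2441 in control libraries (log2 difference -0.48, limma adjusted p 0.832).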

How the data were processed

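Libraries were made from total RNA after ribosomal RNA depletion as directional paired-end libraries, with RNA integrity numbers of 9 to 10 per the labels' protocols. The submitters' processing notes name Rnor_6.0 as build and list Salmon and DESeq2 without versions. The authors deposited normalised counts (a signal per gene and library) and a comparison table whose headers give a mean signal, a log2 fold change (siRNLTR12-int over control) and its standard error, a test score (not used here) and p-values. In every library, 100% of the deposited values checked came out as whole numbers of a per-library step (tolerance 0.01). The check covered values other than 0 and left out the highest ones. All values were then rounded to whole steps, which gave whole reads for edgeR and DESeq2. The handling of multi-mapped reads is not given in the sources. Of the gene rows, 33 had no symbol.

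The main test on the deposited values was limma 3.58.1 applied to log2(normalised count + 1) (moderated with a mean trend, two-sided, Benjamini-Hochberg adjustment) over genes with a mean of at least 10, with all 7 libraries and no covariate. Fold changes on this scale understate those of low genes. edgeR 4.0.16 (quasi-likelihood) and DESeq2 1.42.0 on the recovered reads, other pseudocounts (0.25 and 8), filters (none, and a mean of 50), TMM and upper-quartile scaling, no trend, array weights, a replicate block, leaving out each library, and astrocyte marker level were alternatives. DESeq2 with each library left out was added after seeing the data. The scripts were tested on simulated data. The members and lists were chosen with earlier results of these data known. Genes were named where limma or the authors called them, for the 10 smallest limma p-values among the matrix genes, and for up to 3 genes per role with the highest mean of at least 100, plus 8 genes of the second list. Other genes with values in the text, among them Lama2, Lama3, Lamb3, Lamc3, Col1a1, Col2a1, Col3a1, Col4a4, Col4a6, Col5a1, Col7a1, Col15a1, Col27a1, Dcn and Vtn, were outside this rule and were chosen after their values were seen. Promoter sequences are from RefSeq, build GRCr8, and gene identifiers and symbols from the deposited tables. The values of 1 gene of the set are not reported here, although it is included in the counts over the set. Normalised counts are not per gene length, so levels are not compared between genes.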

Additional observations from a re-analysis of the deposited data

Results flagged for a closer look

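Control replicate 1 stood apart above the other controls in 8 of 66 genes checked, the 58 tested matrix genes and 8 genes of the second list. The gap between control replicate 1 and the next control, as a share of the control range, was 0.94 for Col15a1, 0.912 for Col6a1, 0.911 for Dcn, 0.9 for Lama3, 0.899 for Col4a6, 0.896 for Col3a1, 0.845 for P4ha3 and 0.837 for Col6a2, each above Dixon's 95% critical value for 4 samples. Chance flags about 1 in 20 groups if values are normal and independent, which genes measured in the same 4 libraries are not. The share of all genes flagged by this rule was not computed, so the 8 cannot be called particular to matrix genes. Control replicate 1 was also the control library with the highest fibroblast and meningeal marker level, 4.61 on the mean log2 scale against 3.13 to 3.22 in the other controls, and the part of that in the 8 genes was not tested.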

How the results depend on the processing

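limma called 0 genes and 0 matrix genes, and counts moved under 3 settings. Array weights gave 839 genes and 6 matrix genes, the 4 libraries low in astrocyte markers gave 1415 and 15, and DESeq2 gave 141 and 2. Leaving out each library in limma gave 0 to 2 genes and 0 matrix genes. In DESeq2 it gave 9 to 552 genes and 0 to 5 matrix genes, the highest of both without control replicate 1, where Fn1, Lama5, Col11a2, Col6a1 and Nid1 were called. The median log2 difference of the matrix genes stayed between 0.003 and 0.22. Deviations correlated at 0.75, -0.19 and 0.63 for replicate numbers 1, 2 and 3. For siRNLTR12-int replicate 2 the best correlation was with control replicate 3 (0.57). The libraries of number 1 were both rich in astrocyte markers and those of number 3 both low. The correlations therefore cannot show whether the numbers pair the libraries. The fit with the numbers as a replicate block gave 0 genes, 0 matrix genes and a median of 0.02, and changed no call. Of 38 named genes, 30 kept their direction under every setting. Col10a1 was reversed to -0.0085 with upper-quartile scaling, -0.012 with edgeR and -0.011 with DESeq2, to -0.034 with the astrocyte level as a covariate, to -0.060 with the astrocyte division as a block and to -0.078 in the 4 libraries low in astrocyte markers. Col8a1 was reversed to -0.010 with array weights and to -0.054 with the replicate block, and Lama4 to -0.060 in those 4 libraries. The cause was not tested. Leaving out each library gave -0.14 to 0.15 for Col10a1, -0.13 to 0.16 for Col8a1, -0.038 to 0.82 for Lama4, -0.011 to 0.18 for Agrn, -0.039 to 0.55 for Col12a1, -0.87 to 0.12 for Col20a1, -0.073 to 0.22 for Nid2 and -0.81 to 0.0088 for Sparc. Genes near a mean of 10 rest on few reads, so differences in Vtn were hardly detectable at this depth.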
